A study of Mus musculus with 9 samples.

Results

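Skin challenged with urushiol was compared directly with skin challenged with oxazolone, using the 3 urushiol and 3 oxazolone arrays out of 9 in the series. Members were chosen by sample title, and every gene with a transcript cluster of its own was compared. All arrays came from whole neck skin of male C57BL/6 mice aged 6 to 8 weeks, from which total RNA was extracted. Urushiol mice were sensitised with 2.0% urushiol on the shaved abdomen and, starting 5 days later, challenged on the shaved nape with 40 µl of 0.5% urushiol in acetone. Oxazolone mice received the same concentrations of oxazolone by the same schedule. Challenges were repeated to a total of 5, ending on day 8, and the nape was sampled 4 hours after the final one. The remaining 3 arrays are of healthy skin and serve here as the background level. The sources used here do not say whether healthy skin was shaved or received acetone alone. Urushiol is the mixture of oily alkyl catechols of poison ivy and its relatives, and oxazolone is a synthetic hapten, a small reactive molecule that turns the host's own proteins into antigens.

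Both agents produce allergic contact dermatitis. In that reaction, hapten-modified proteins are carried to lymph nodes in the sensitisation phase, and a later contact recalls T cells to the skin. Cytotoxic and T helper 1 cells release interferon gamma, which acts on keratinocytes and leucocytes and switches on CXCR3-binding chemokines, guanylate-binding proteins, immunity-related GTPases and the machinery of antigen presentation. Keratinocytes answer with alarmins, antimicrobial peptides and a thickened, stressed epidermis, and several of these products act on sensory nerves as itch mediators.

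Values are the log2 values of the deposited array table, for 30142 genes. A difference is the mean of the 3 urushiol arrays minus the mean of the 3 oxazolone arrays, so a positive value is higher with urushiol, and it is given ± its SE from limma. Across genes, the urushiol arrays correlated with each other at 0.994 to 0.996, the oxazolone arrays at 0.990 to 0.994, and arrays of the 2 allergens at 0.984 to 0.992. Array medians over genes lay between 6.12 and 6.18. In the control group, array 3 stood apart. It correlated with the other 2 at 0.979 and 0.978, against 0.995 between them. Keratins and collagens that mark skin were high on all 9 arrays, with Krt5 between 17.52 and 18.79 and Col1a2 between 13.24 and 16.34. The table runs up to 19.93, above 16, the log2 limit of a 16-bit scanner. The sources used here do not say how values above 16 arose, so a difference may not equal the log2 ratio of RNA amounts, and 625 genes had a value above 16 on at least 1 of the 6 arrays. The samples are labelled as biological replicates. In whole skin, fewer cells of a type and less RNA per cell cannot be told apart.

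The comparison called 2 genes at an adjusted p of 0.05, both higher with urushiol, which is 0.00664% of the genes tested. No gene was called lower, 0% of those tested, although 874 genes were lower and 1206 higher at an unadjusted p under 0.05 in limma. Together these make 6.9% of the 30142 genes. This fit took no account of the replicate numbers. With the replicate number as a block, 0 genes were called in either direction. The widest gaps were not those of the 2 called genes. Differences of at least 3 log2 units were found for 14 genes that were higher and 42 that were lower with urushiol, and in 14 of the 14 and 41 of the 42 the arrays of the allergens did not overlap. Over all genes, the 3 urushiol arrays all lay above the 3 oxazolone arrays in 5.35% of genes and all below in 4.39%, the background against which each count below is read. A two-sided exact permutation test of 3 against 3 cannot give a p below 0.1, so none was used for single genes.

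**Figure D1:**
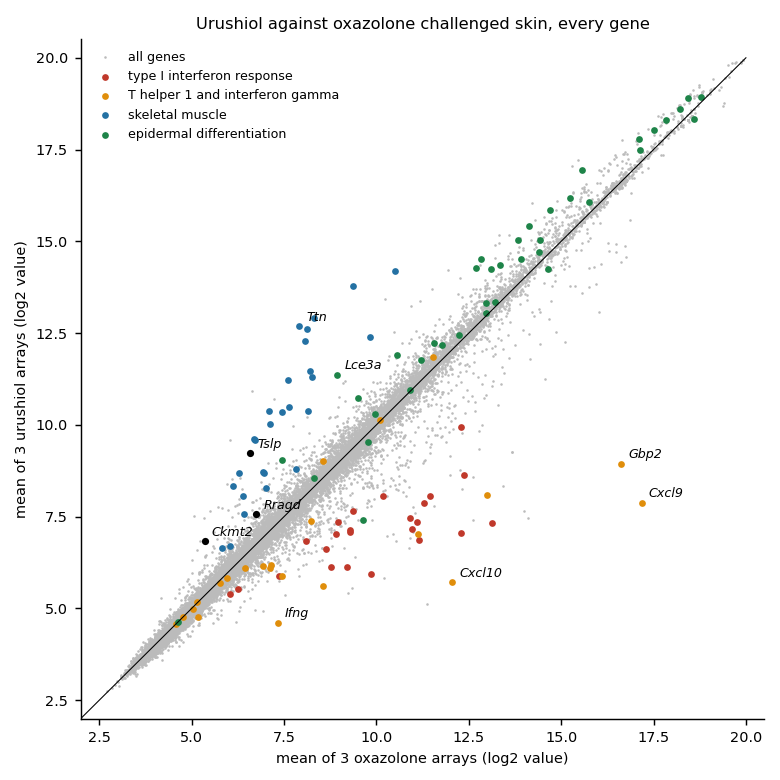
Mean log2 value of the 3 urushiol arrays (vertical axis) against that of the 3 oxazolone arrays (horizontal axis) for each of the 30142 genes, with 4 gene lists in colour, Ckmt2, Rragd and Tslp in black, and the line of equal values. Interferon genes such as Cxcl9 and Gbp2 lie below the line and skeletal muscle genes such as Ttn lie above it.

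The 3 widest gaps in favour of oxazolone were those of Cxcl9, Gbp2 and Igtp, genes that interferon gamma is known to switch on. Of the 42 genes at least 3 log2 units lower with urushiol, 16 belonged to the lists of interferon gamma and type I interferon genes and 26 to neither, and on 40 of the 42 the oxazolone arrays lay above both the urushiol and the control arrays. That ordering was seen in 2.66% of all genes. The choice of the 42 by a wide gap already put urushiol below oxazolone, so only the place of control was open. Of the 1323 genes with all urushiol arrays below all oxazolone arrays, 802 had the ordering. None of the differences of the 42 genes passed the threshold after adjustment, and those named below are given as values.

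Interferon gamma itself, the T helper 1 cytokine, read 6.93, 6.98 and 8.07 on the oxazolone arrays and 4.84, 4.38 and 4.62 on the urushiol arrays. The control arrays read 4.46, 4.80 and 4.46. The urushiol arrays overlapped control skin, and all 3 oxazolone arrays lay above both. On the urushiol arrays Ifng lay below the array medians over genes, 6.12 to 6.18, toward the bottom of the scale. The difference for Ifng was -2.71 ± 0.35 (n = 3 per group, 95% interval -3.62 to -1.80, adjusted p = 0.186). Against control skin, Ifng stood 2.75 ± 0.31 higher with oxazolone and 0.04 ± 0.31 higher with urushiol, 2 values that share the same control arrays.

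The CXCR3 chemokines, which draw activated T cells into tissue, included the widest gap of any gene tested. Cxcl9 read 16.91, 16.61 and 18.02 on the oxazolone arrays against 10.18, 6.82 and 6.65 on the urushiol arrays, with 5.94, 6.81 and 9.34 in control skin. Its difference was -9.30 ± 1.10 (95% interval -12.11 to -6.48, adjusted p = 0.177). Urushiol array 1 was the highest of its group and control array 3 the highest of the controls, and both were still far below every oxazolone array. Cxcl10 read 12.59, 10.60 and 12.94 with oxazolone and 6.04, 6.04 and 5.04 with urushiol, a difference of -6.34 ± 0.72 (adjusted p = 0.166). Cxcl11 read 8.64, 7.55 and 9.50 with oxazolone and 5.79, 5.60 and 5.46 with urushiol, a difference of -2.95 ± 0.51 (adjusted p = 0.244). For all 3 chemokines the urushiol arrays overlapped the control arrays.

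Of the transcription factors of this pathway, Irf1 and Stat4 were highest with oxazolone. Irf1, which interferon gamma induces, read 10.82, 10.34 and 12.22 with oxazolone and 7.37, 6.87 and 6.85 with urushiol, a difference of -4.10 ± 0.53 (adjusted p = 0.186). Stat4, which carries the interleukin 12 signal in T cells, read 6.92, 7.05 and 6.82 with oxazolone, 6.14, 6.14 and 6.19 with urushiol and 5.25, 5.39 and 5.30 in control skin. Here the 3 groups did not overlap, with urushiol between the others. Its difference of -0.77 ± 0.07 had an adjusted p of 0.118 among the 6 arrays and of 0.0486 when all 9 arrays were fitted together. Il12rb2, a chain of the interleukin 12 receptor, went the other way against healthy skin. It read 10.55, 10.54 and 10.58 in control skin, 7.54, 6.75 and 8.08 with oxazolone and 6.11, 5.72 and 5.85 with urushiol, so both challenged groups lay below control and urushiol lay lowest.

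Of the 23 measured genes of the T helper 1 and interferon gamma list, 0 were called, 12 had all urushiol arrays below all oxazolone arrays and 0 had them above. The list's median difference was -0.77, against a median of -0.00 over all genes. On 10 of the 23 the oxazolone arrays lay above both other groups. The members that overlapped included both receptor chains Ifngr1 and Ifngr2, at 0.32 and 0.03, the T helper 1 factor Tbx21 at -0.05, and the cytokine chains Il12a and Il12b at -0.01 and 0.03. The sign of Ifngr2, Il12a and Il12b changed on leaving out single arrays. Most arrays of the allergens read Il12a and Il12b no higher than the array median, so their lack of a gap says little.

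**Figure D2:**
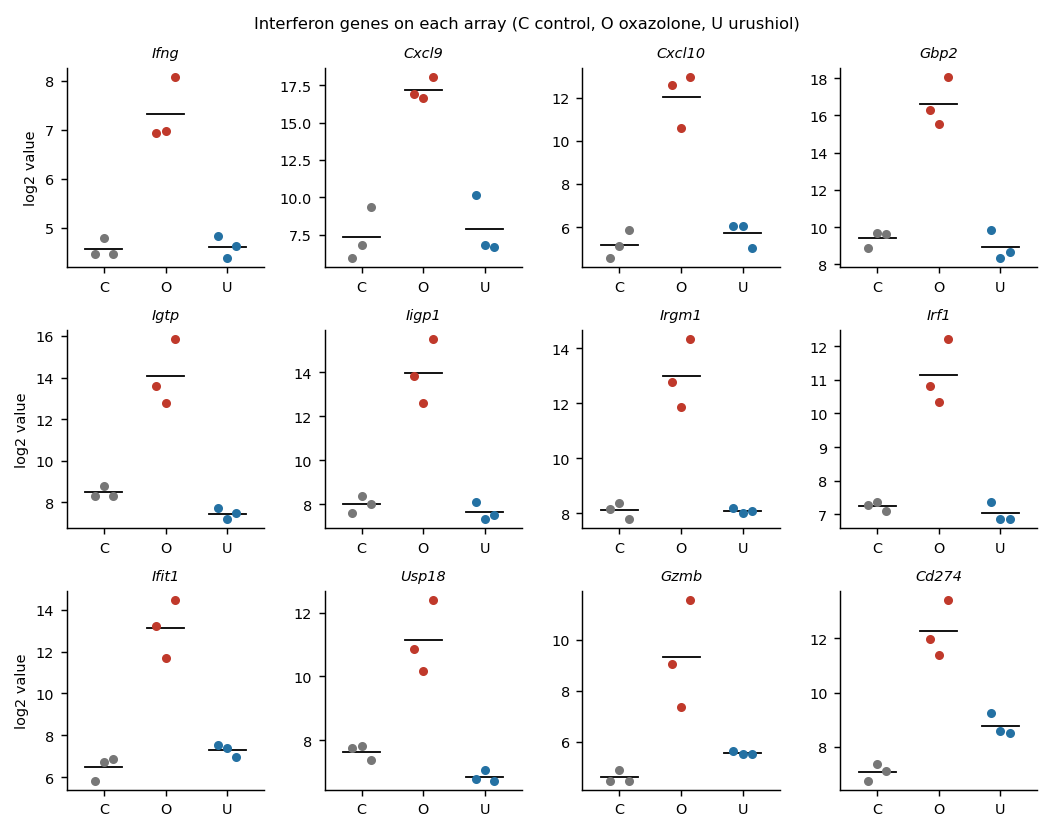
Log2 values on each array (vertical axis, its own range in each panel) for 12 interferon and cytotoxic genes in control (C), oxazolone (O) and urushiol (U) skin. Points are arrays and bars are group means. In every panel the 3 oxazolone arrays lie above the 3 urushiol arrays, as for Cxcl9 at 16.61 to 18.02 against 6.65 to 10.18.

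Guanylate-binding proteins and immunity-related GTPases, which attack the vacuoles of intracellular microbes, made up 11 of the 42 genes at least 3 log2 units lower with urushiol, counted by their Gbp and Irgm symbols with Igtp and Iigp1 after the values were seen. Gbp2 read 16.32, 15.52 and 18.05 with oxazolone, 9.84, 8.33 and 8.67 with urushiol and 8.89, 9.67 and 9.64 in control skin. The urushiol arrays overlapped the controls, and the oxazolone arrays lay above both. Its difference was -7.68 ± 0.78 (95% interval -9.69 to -5.67), with an adjusted p of 0.149 among the 6 arrays and of 0.0486 with all 9 arrays in the fit. Igtp read 13.61, 12.79 and 15.87 with oxazolone and 7.72, 7.17 and 7.46 with urushiol, a difference of -6.64 ± 0.84 (adjusted p = 0.184). With 8.31, 8.78 and 8.31 in control skin, Igtp was one of the genes whose urushiol arrays lay below every control array while every oxazolone array lay above.

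Iigp1 read 13.81, 12.62 and 15.53 with oxazolone and 8.11, 7.31 and 7.53 with urushiol, a difference of -6.34 ± 0.78 (adjusted p = 0.183). Irgm1 read 12.77, 11.85 and 14.35 with oxazolone and 8.19, 8.03 and 8.08 with urushiol, a difference of -4.89 ± 0.65 (adjusted p = 0.188). Against control skin, Irgm1 stood at -0.01 ± 0.56 with urushiol and at 4.88 ± 0.56 with oxazolone, in comparisons that share the controls. Irgm2, Gbp4, Gbp7 and Gbp3 followed at -4.39 ± 0.59, -5.09 ± 0.91, -4.41 ± 0.69 and -3.42 ± 0.75. Rnf213, a large ubiquitin ligase induced by interferons, stood at -4.41 ± 0.62. These families hold closely similar genes, and probes that read more than 1 copy were not tested for. Igtp, Iigp1, the Gbp genes other than Gbp2, Irgm2 and Rnf213 were picked after their values were seen.

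Type I interferon genes all lay on the same side. All 24 measured members had every urushiol array below every oxazolone array and every oxazolone array above every control array. The list's median difference was -2.51, its members ranged from -0.65 to -5.82, and 0 of 24 were called, with a lowest adjusted p of 0.183. In 13 of the 24, urushiol lay between oxazolone and control with no overlap, and in 3 it lay below control. The first order was seen in 0.942% of all genes. As all 24 lay below with urushiol, only the place of control was open. Of the 1323 genes with all urushiol arrays below all oxazolone arrays, 284 had that order.

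Ifit1, which binds viral RNA lacking host cap marks, read 13.24, 11.71 and 14.46 with oxazolone, 7.55, 7.42 and 6.99 with urushiol and 5.84, 6.73 and 6.86 in control skin. Its difference was -5.82 ± 0.73 (95% interval -7.68 to -3.95, adjusted p = 0.183). The 3 groups did not overlap, with urushiol just above control. Rsad2, the antiviral enzyme viperin, stood at -5.25 ± 1.08, Mx1 at -3.94 ± 0.62 and Oasl2 at -3.80 ± 0.80. At the low end of the list, Oas3 and Oasl1 stood at -0.75 and -0.65. Separation of all groups with urushiol lowest was found for Usp18, Ifih1 and Stat2, a negative regulator, an RNA sensor and a signalling factor of this pathway. Usp18 read 10.86, 10.16 and 12.40 with oxazolone, 7.75, 7.82 and 7.37 in control skin and 6.78, 7.07 and 6.73 with urushiol, a difference of -4.28 ± 0.60 (adjusted p = 0.199).

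The arrays of oxazolone skin differed among themselves in this block. Oxazolone array 3 was the highest of its group for 24 of 24 type I interferon genes and array 2 the lowest for 23. The list's mean, relative to its mean over the 6 arrays, was 1.32, 0.34 and 2.51 on oxazolone arrays 1 to 3, against -1.39, -1.33 and -1.44 with urushiol. Every oxazolone array thus lay above every urushiol array, and the spread was wider within oxazolone. Leaving out 1 of the 6 arrays moved the list's median to between -3.36 and -1.83.

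Promoters of 4 of these genes are shown because they carry the sequence that interferon-activated complexes are known to bind, the interferon-stimulated response element (ISRE). It was searched as TTTC, any 2 bases, TTTC, on both strands, in RefSeq promoters of build GRCm38.p6 reaching from 250 bases before to 50 bases after the start. Capitals mark each match, which reads as GAAA, 2 bases, GAAA where it lies on the other strand. Ifit1 is at chr19:34640639-34640938, plus strand, with matches beginning 104 and 85 bases before the start. Cxcl10 is at chr5:92348840-92349139, minus strand, with 1 match beginning 213 bases before the start. Gbp2 is at chr3:142620413-142620712, plus strand, with 1 match beginning 59 bases before the start. Irgm1 is at chr11:48871371-48871670, minus strand, with overlapping matches beginning 30 and 24 bases before the start. The Cxcl9 promoter was searched too and held 1 AP-1 match, lying after the start, without the letters of the ISRE or of the gamma-activated site in this window. AP-1 matches were also held by the Cxcl10, Gbp2 and Irgm1 promoters, beginning 74, 102 and 115 bases before the start, and not by that of Ifit1.

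Ifit1: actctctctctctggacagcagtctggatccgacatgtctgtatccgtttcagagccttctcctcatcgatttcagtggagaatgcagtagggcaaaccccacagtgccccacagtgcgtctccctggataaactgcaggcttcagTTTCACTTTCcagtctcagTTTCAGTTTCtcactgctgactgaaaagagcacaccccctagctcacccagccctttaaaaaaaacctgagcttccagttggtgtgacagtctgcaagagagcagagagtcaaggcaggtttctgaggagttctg

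Cxcl10: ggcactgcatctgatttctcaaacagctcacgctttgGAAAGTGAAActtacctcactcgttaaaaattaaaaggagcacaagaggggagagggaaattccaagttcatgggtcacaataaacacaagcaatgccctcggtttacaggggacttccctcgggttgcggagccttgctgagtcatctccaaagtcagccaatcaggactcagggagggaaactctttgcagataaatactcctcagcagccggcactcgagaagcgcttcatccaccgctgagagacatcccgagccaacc

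Gbp2: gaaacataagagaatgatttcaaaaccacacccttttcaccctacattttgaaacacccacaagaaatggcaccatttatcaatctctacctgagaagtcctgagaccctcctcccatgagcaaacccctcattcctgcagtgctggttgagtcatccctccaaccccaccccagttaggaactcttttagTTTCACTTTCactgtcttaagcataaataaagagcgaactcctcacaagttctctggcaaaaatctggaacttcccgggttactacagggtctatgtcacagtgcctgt

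Irgm1: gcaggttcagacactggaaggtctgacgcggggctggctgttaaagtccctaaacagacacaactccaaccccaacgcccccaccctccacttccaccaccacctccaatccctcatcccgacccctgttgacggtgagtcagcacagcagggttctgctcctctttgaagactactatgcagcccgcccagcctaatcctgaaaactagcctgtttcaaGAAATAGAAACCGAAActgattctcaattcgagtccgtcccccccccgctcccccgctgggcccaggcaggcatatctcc

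Among the 24 type I interferon genes, 18 had a promoter in that table, and 11 of the 18 (61.1%) held the ISRE letters, against 3.85% of the 17970 measured genes with a promoter. All 24 measured members of this list of known interferon genes lay below, so that share describes the list. It says nothing of the difference between the allergens. Of the 12 T helper 1 genes whose urushiol arrays lay below, 9 had a promoter and 4 of these (44.4%) held the ISRE. Of the 27 skeletal muscle genes, which lay the other way, 22 had a promoter and 0 held it. The gamma-activated site, searched as TTC, 3 free bases, GAA, was held by 3 of 18 and 3 of 9 interferon promoters (16.7% and 33.3%), against 9.16% of all. For AP-1, searched as TGA, 1 free base, TCA, the shares were 5 of 18 and 4 of 9 (27.8% and 44.4%), against 8.55% of all. For the antioxidant response element, searched as TGAC, 3 free bases, GC, they were 3 of 18 and 2 of 9 (16.7% and 22.2%), against 15% of all. Of the 11 antigen presentation genes that lay below, 10 had a promoter, and 2 of these (20%) held the ISRE, 1 the gamma-activated site, 0 AP-1 and 1 the antioxidant response element. Of the 13 epidermal differentiation genes that lay above, 11 had a promoter, and 0 held the ISRE, 1 (9.09%) the gamma-activated site, and 3 each (27.3%) AP-1 and the antioxidant response element. Of the 22 muscle promoters, 2 (9.09%) held AP-1, near the share of all genes. Shares of AP-1 thus varied between lists on both sides of the comparison. Matches of AP-1 and the antioxidant response element can overlap, and a match here describes letters only.

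Of 16 measured antigen presentation genes, 11 had all urushiol arrays below, 0 above and 0 called, with a median difference of -1.16 (-0.76 without oxazolone array 3). Those 11 were the class I chains H2-K1, H2-D1 and H2-Q4, B2m, the peptide trimmer Erap1, the peptide pump Tap1 and Tap2, its partner Tapbp, and the immunoproteasome subunits Psmb8, Psmb9 and Psmb10. The class II genes H2-Aa, H2-Ab1, H2-Eb1, H2-DMa and H2-DMb1 overlapped, with differences from -0.55 to 0.08, and the difference between the classes was not tested.

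Tap1 read 10.27, 10.08 and 11.43 with oxazolone, 9.08, 9.40 and 9.50 in control skin and 8.25, 8.10 and 8.33 with urushiol. The groups did not overlap, and urushiol lay below healthy skin. The difference between allergens was -2.37 ± 0.38 (95% interval -3.35 to -1.38, adjusted p = 0.222), with 1.27 ± 0.33 for oxazolone and -1.10 ± 0.33 for urushiol against the shared controls. Tapbp, Psmb9 and Tap2 had the same order of groups. Over all genes, oxazolone above control above urushiol with no overlap occurred in 0.126%, or 38 genes. That order was met by 4 of the 16 antigen presentation genes and by 3 of the 24 type I interferon genes. Only genes with all urushiol arrays below all oxazolone arrays can have it. These were 1323 of all genes, 11 of the 16 and 24 of the 24.

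Of 18 measured genes of cytotoxic lymphocytes, 13 had all urushiol arrays below, 0 above and 0 called, with a median of -0.57 (-0.36 without oxazolone array 3). Gzmb, a granule protease that triggers death of target cells, read 9.04, 7.38 and 11.57 with oxazolone, 5.63, 5.51 and 5.51 with urushiol and 4.48, 4.90 and 4.48 in control skin. Its difference was -3.78 ± 1.09 (95% interval -6.58 to -0.98, adjusted p = 0.539). The oxazolone arrays ran from 7.38 to 11.57 while the urushiol arrays agreed closely, just above control. Gzma read 9.37, 6.76 and 11.55 with oxazolone and 5.50, 5.43 and 5.33 with urushiol, a difference of -3.81 ± 1.24 (adjusted p = 0.613). The receptors Klrd1 and Klrk1 of natural killer and CD8 cells stood at -1.27 ± 0.31 and -1.21 ± 0.33.

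Of 15 T cell genes, 7 lay below with urushiol and 0 above, with a median of -0.29 (-0.17 without oxazolone array 3). Both CD8 chains were among those below. Cd8a read 6.85, 5.42 and 7.90 with oxazolone, 5.07, 4.76 and 5.07 with urushiol and 4.60, 4.82 and 4.69 in control skin, a difference of -1.76 ± 0.65 (adjusted p = 0.704). Cd8b1 stood at -1.61 ± 0.57. Cd4 stood at 0.42 ± 0.18, with 5.90, 5.58 and 5.92 for oxazolone and 6.38, 6.39 and 5.88 for urushiol, which overlap. Cd3e, a chain that all T cells carry, was highest in control skin at 7.47, 7.51 and 7.35, then read 6.43, 5.78 and 6.81 with oxazolone and 5.56, 5.44 and 5.72 with urushiol. Cd3g was also lowest with urushiol, with a difference of -0.96 ± 0.32 between the allergens. Its control and oxazolone arrays overlapped. All urushiol arrays read Cd8a and Cd3e, and all oxazolone arrays read Cd4, below the array medians over genes, 6.12 to 6.18. Readings toward the bottom of the scale limit what these genes can show.

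Of 17 measured checkpoint and regulatory genes, 10 lay below with urushiol, 0 above and 0 were called, with a median of -0.42. Cd274, the ligand PD-L1 that interferon gamma induces, read 11.96, 11.39 and 13.40 with oxazolone, 9.23, 8.57 and 8.53 with urushiol and 6.76, 7.37 and 7.12 in control skin. No group overlapped another, and both allergens lay above control. Its difference was -3.47 ± 0.57 (adjusted p = 0.222). Havcr2, the receptor TIM-3, read 9.76, 9.54 and 10.30 with oxazolone and 8.61 on all 3 urushiol arrays, a difference of -1.26 ± 0.20 (adjusted p = 0.222). Identical values within a group were not rare in the table. They were met on all 3 arrays of at least 1 allergen in 12.4% of genes, and they make the SE of such a gene small.

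**Figure D3:**
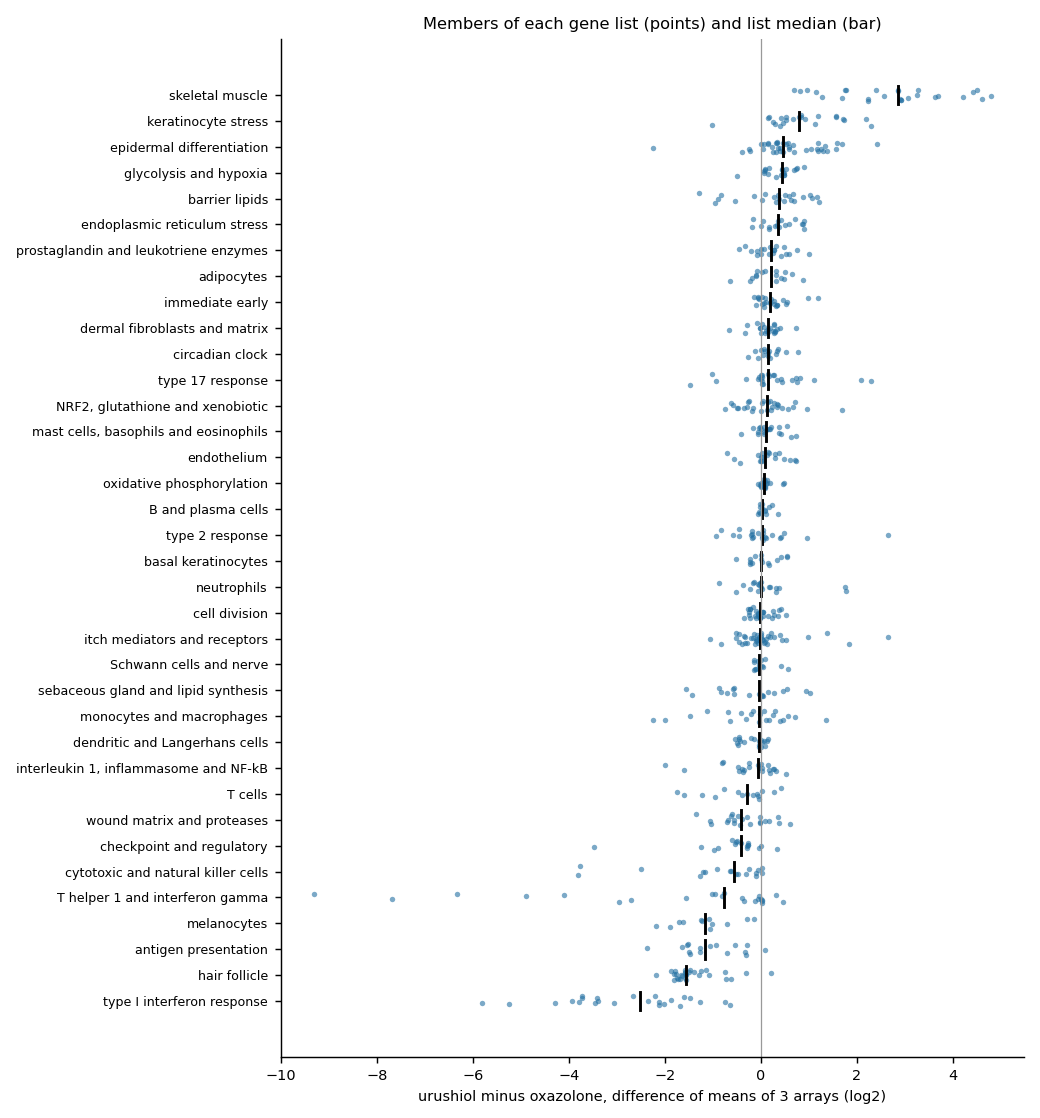
Difference between urushiol and oxazolone (horizontal axis, log2) for every measured member of 36 gene lists, 1 point per gene, with the list median as a bar. All skeletal muscle members lie above 0 and all type I interferon members below it, while most other lists straddle 0.

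Of 23 genes of interleukin 1, the inflammasome and NF-kB, 5 lay below with urushiol and 0 above, with a median of -0.06. Casp4, the caspase that senses bacterial lipopolysaccharide in the cell, read 11.24, 10.91 and 12.28 with oxazolone and 10.33, 8.39 and 9.70 with urushiol, a difference of -2.00 ± 0.63 (adjusted p = 0.597). Casp1, which cuts pro-interleukin 1 beta, stood at -1.60 ± 0.57, the adhesion molecule Icam1 at -0.82 ± 0.16, the growth factor Csf2 at -0.39 and Nfkb2 at -0.26 ± 0.09. Most arrays of the allergens read Csf2 no higher than the array median, toward the bottom of the scale. Interleukin 1 beta did not separate. It read 16.42, 15.98 and 15.17 with oxazolone, 15.87, 15.45 and 15.21 with urushiol and 7.23, 7.71 and 8.29 in control skin. The difference between allergens was -0.35 ± 0.37 (95% interval -1.30 to 0.60), while oxazolone and urushiol stood above control by 8.11 ± 0.39 and 7.77 ± 0.39.

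Of 22 monocyte and macrophage genes, 3 lay below, 1 above and 0 were called, with a median of -0.04, and the share above was near the 5.35% of all genes. Ccl2, the monocyte attractant, read 10.44, 10.84 and 10.95 with oxazolone, 9.49, 8.26 and 7.71 with urushiol and 6.26, 7.66 and 7.20 in control skin, a difference of -2.26 ± 0.49 (adjusted p = 0.369). Fcgr1, the high-affinity antibody receptor, stood at -1.12 ± 0.17. Cd163, the haemoglobin scavenger receptor of resident macrophages, lay the other way, at 10.40, 9.46 and 9.05 with oxazolone and 11.13, 10.88 and 10.94 with urushiol, a difference of 1.35 ± 0.36 (adjusted p = 0.492). Of 22 wound matrix and protease genes, 7 lay below with urushiol and 0 above, with a median of -0.42. They were Adam8, Adamts4, Inhba, Itga5, Plaur, Timp1 and Tnc, and on all 7 the groups ordered as oxazolone, urushiol, control without overlap. That order was met in 0.942% of all genes, or 284 of the 1323 genes that lay below with urushiol. Timp1, an inhibitor of matrix metalloproteinases, read 9.79, 10.64 and 9.22 with oxazolone and 9.08, 8.45 and 8.95 with urushiol, a difference of -1.06 ± 0.41. Inhba, the activin A subunit, stood at -1.04 ± 0.17 (adjusted p = 0.227). Mmp13, the list's widest gap at -1.36 ± 0.72, overlapped.

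All 27 measured skeletal muscle genes had every urushiol array above every oxazolone array, and every control array above both. That order, control above urushiol above oxazolone, was seen in 1.35% of all genes. The list's median difference was 2.86, its members ranged from 0.68 to 4.78, and 0 of 27 were called, with a lowest adjusted p of 0.134. Of the 14 genes at least 3 log2 units higher with urushiol, 10 were on this list and 13 had that order of groups. For those 14 the choice already put urushiol above oxazolone. Of the 1613 genes with all urushiol arrays above, 407 had the order.

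Ttn, the giant spring protein of the sarcomere, read 18.56, 18.58 and 16.69 in control skin, 12.52, 12.68 and 12.87 with urushiol and 7.83, 6.21 and 9.70 with oxazolone. Its difference was 4.78 ± 0.91 (95% interval 2.45 to 7.10, adjusted p = 0.29). Atp2a1, the calcium pump of fast muscle, read 12.16, 12.79 and 13.79 with urushiol and 8.15, 6.46 and 10.31 with oxazolone, a difference of 4.61 ± 1.08 (adjusted p = 0.417). Both allergens lay far below healthy skin, as for Atp2a1 at -5.62 ± 1.02 with urushiol and -10.22 ± 1.02 with oxazolone against the shared controls. Tnnt3, a fast troponin, stood at 4.49 ± 0.78, Myh4, a fast myosin, at 4.41 ± 1.23, and Acta1, skeletal actin, at 2.56 ± 0.42. Oxazolone array 3, the highest for interferon genes, was also the highest of its group for 23 of 27 muscle genes, and array 2 the lowest for 26. The sources used here do not say how much of the muscle layer under the skin each sample held, and its part in the other differences was not tested.

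Both called genes had the muscle order of groups. Ckmt2, the mitochondrial creatine kinase of striated muscle, read 5.30, 5.41 and 5.34 with oxazolone, 6.84, 6.79 and 6.84 with urushiol and 14.01, 13.62 and 9.58 in control skin. It was 1.47 ± 0.04 higher with urushiol (95% interval 1.37 to 1.58, adjusted p = 0.00857). Rragd, a Rag GTPase that signals amino acid supply to mTORC1, read 6.75, 6.69 and 6.78 with oxazolone, 7.56 on all 3 urushiol arrays and 12.89, 12.94 and 9.21 in control skin. It was 0.82 ± 0.03 higher with urushiol (95% interval 0.73 to 0.91, adjusted p = 0.0329). Both gaps were smaller than that of Ttn, and their SEs of 0.04 and 0.03 compare with a median SE of 0.10 over all genes. Both calls were lost when the replicate number was a block (replicate block: 0.347 for each) and when any 1 of the 6 arrays was left out (0.0554 to 0.26 for Ckmt2 and 0.0787 to 0.478 for Rragd). With all 9 arrays in the fit, their adjusted p was 0.984 and 0.999.

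**Figure D4:**
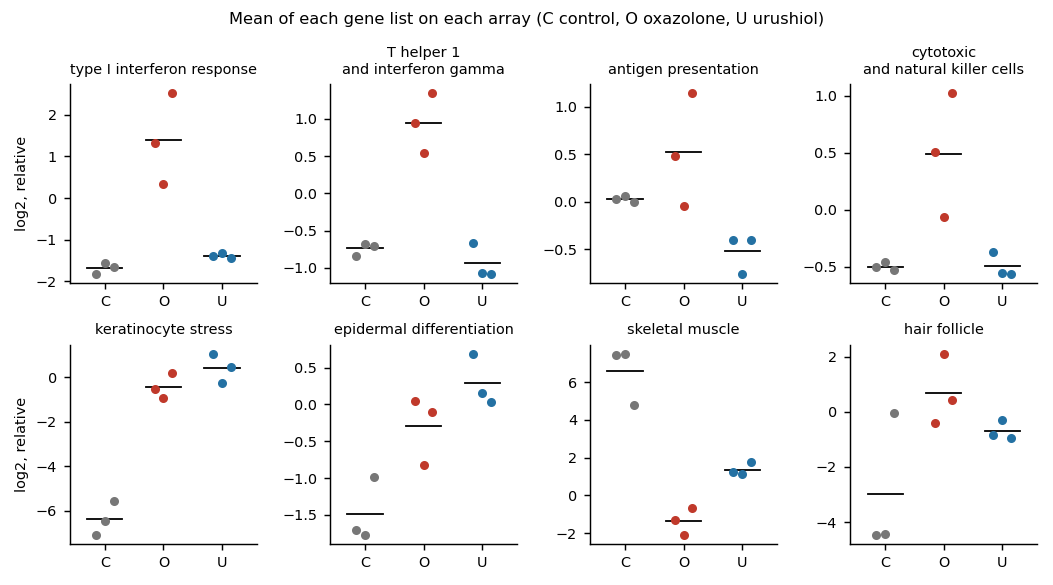
Mean log2 value of the members of 8 gene lists on each array (vertical axis, relative to the list's mean over the 6 challenged arrays, its own range in each panel) in control (C), oxazolone (O) and urushiol (U) skin, with group means as bars. The skeletal muscle mean runs from -2.09 to -0.68 with oxazolone, 1.11 to 1.74 with urushiol and 4.81 to 7.47 in control skin.

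Of 39 measured epidermal differentiation genes, 13 had all urushiol arrays above all oxazolone arrays, 0 below and 0 were called, with a median of 0.46 (0.28 without oxazolone array 2), and most of the list overlapped. In 7 of the 13 the oxazolone arrays in turn lay above control. That order was met in 1.43% of all genes, or 430 of the 1613 genes with all urushiol arrays above. Lce3a, a late envelope protein that appears in damaged epidermis, read 12.85, 10.20 and 11.04 with urushiol, 9.51, 7.62 and 9.70 with oxazolone and 5.04, 4.78 and 5.21 in control skin. Its difference was 2.42 ± 0.92 (95% interval 0.07 to 4.77, adjusted p = 0.711). Tgm3, which cross-links the envelope, read 15.45, 15.11 and 15.71 with urushiol and 13.91, 13.91 and 14.60 with oxazolone, a difference of 1.28 ± 0.26 (adjusted p = 0.33). Tgm5, a related enzyme, stood at 1.33 ± 0.27, Casp14, the caspase of cornification, at 1.37 ± 0.54 and Ivl, an early envelope precursor, at 1.16 ± 0.28.

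The main structural proteins did not separate. Flg, which aggregates keratin and yields natural moisturising factor, read 18.05, 18.98 and 17.85 with urushiol and 18.04, 17.39 and 18.08 with oxazolone, a difference of 0.46 ± 0.37 (95% interval -0.49 to 1.41). Lor read 11.10, 11.26 and 10.49 with urushiol and 11.16, 10.62 and 10.96 with oxazolone, a difference of 0.04 ± 0.25 (95% interval -0.61 to 0.69), and both groups lay below the 12.37, 12.39 and 12.83 of control skin. Krt1 and Krt10 stood at 0.15 ± 0.15 and -0.26 ± 0.36. Of 15 basal keratinocyte genes, 0 separated in either direction, and the median was 0.00.

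Of 23 keratinocyte stress genes, 5 lay above with urushiol and 0 below, with a median of 0.80. That median was 0.46 without oxazolone array 2 and 0.48 without urushiol array 1. Ereg, a growth factor for the EGF receptor, read 13.92, 14.71 and 13.34 with urushiol, 12.36, 12.24 and 12.18 with oxazolone and 10.94, 11.65 and 11.21 in control skin, a difference of 1.73 ± 0.36 (adjusted p = 0.348). Krt16, a keratin of proliferating stressed epidermis, read 19.32, 19.11 and 19.32 against 19.06, 18.23 and 18.93, near the top of the scale. The small proline-rich proteins had wide gaps that overlapped, as for Sprr2f at 2.29 ± 0.98 and Sprr2d at 2.19 ± 1.22, and these closely similar genes may share probes.

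Enzymes of the lipid barrier gave 6 genes above with urushiol and 0 below, of 23, with a median of 0.37 (0.23 without oxazolone array 1 and 0.61 without oxazolone array 3). Smpd1, acid sphingomyelinase, which makes ceramide at the skin surface, read 10.57, 10.56 and 10.46 with urushiol, 9.54, 9.63 and 9.82 with oxazolone and 9.89, 9.84 and 9.95 in control skin. The groups did not overlap, and control lay between the allergens. Its difference of 0.87 ± 0.08 had an adjusted p of 0.139 among the 6 arrays and of 0.0486 with all 9 in the fit. Cers3, the ceramide synthase of very long chains, stood at 1.20 ± 0.28, Alox12b, a lipoxygenase of the envelope, at 1.17 ± 0.45 and Abca12, the lipid transporter of lamellar granules, at 1.02 ± 0.30. Sqle, a cholesterol synthesis enzyme of the lipid synthesis list, read 13.06, 12.81 and 12.80 with urushiol and 11.89, 11.90 and 12.07 with oxazolone, a difference of 0.94 ± 0.10 (adjusted p = 0.149).

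Among cytokines and antimicrobial peptides of the epidermis, Il1f6, Defb4, S100a8 and S100a9 had every urushiol array above every oxazolone array. Il1f6, which encodes interleukin 36 alpha, read 14.91, 13.82 and 13.94 with urushiol, 12.36, 11.34 and 12.12 with oxazolone and 5.70, 5.66 and 7.61 in control skin. Its difference was 2.28 ± 0.41 (95% interval 1.22 to 3.35, adjusted p = 0.269). Defb4, a beta-defensin, read 11.25, 9.97 and 9.42 with urushiol and 8.19, 8.04 and 8.14 with oxazolone, a difference of 2.09 ± 0.49 (adjusted p = 0.413). Defb3, another defensin, picked after its values were seen, stood at 3.20 ± 1.03. S100a8, a partner in calprotectin, a protein released by neutrophils and stressed keratinocytes, read 18.28, 15.74 and 17.64 with urushiol, 15.57, 15.17 and 15.60 with oxazolone and 5.26, 7.21 and 7.45 in control skin. Urushiol array 2 lay close above the oxazolone arrays, and the difference was 1.77 ± 0.69 (adjusted p = 0.726). Its partner S100a9 stood at 1.75 ± 0.70.

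Most genes of the same lists overlapped. Of 27 type 17 genes, Il1f6 and Defb4 lay above and 0 below, with a median of 0.14. Il17a, Il17f and Il22 read between 4.10 and 4.36 on all 9 arrays, near the bottom of the scale in control skin as well. Il23a stood at 0.25 ± 0.31 (95% interval -0.55 to 1.04). Il6 read 8.10, 10.21 and 9.17 with oxazolone and 8.39, 7.48 and 7.19 with urushiol, a difference of -1.47 ± 0.63 whose arrays overlapped. Of 20 neutrophil genes, S100a8 and S100a9 were the 2 that separated, and the list's median was -0.01.

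Thymic stromal lymphopoietin, the keratinocyte alarmin that primes type 2 responses and excites itch fibres, had all urushiol arrays above all oxazolone arrays. Tslp read 8.71, 10.56 and 8.41 with urushiol, 6.88, 6.19 and 6.67 with oxazolone and 6.30, 6.12 and 6.21 in control skin. The oxazolone arrays overlapped control, and every urushiol array lay above both. Its difference was 2.65 ± 0.63 (95% interval 1.03 to 4.26, adjusted p = 0.422), with urushiol 3.02 ± 0.53 and oxazolone 0.37 ± 0.53 above the shared controls. Leaving out 1 array left it between 1.98 and 3.06. Il33, the other main alarmin, did not separate, at 15.77, 14.82 and 15.33 with urushiol, 15.01, 14.48 and 15.21 with oxazolone and 11.08, 10.51 and 11.00 in control skin.

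The type 2 cytokines themselves were low. Il4 read 5.13, 4.92 and 4.77 with urushiol and 4.77, 5.06 and 4.85 with oxazolone, and Il13 read 5.94, 5.29 and 5.36 against 5.44, 5.43 and 6.22. Their differences were 0.05 ± 0.12 (95% interval -0.27 to 0.36) and -0.17 ± 0.30 (95% interval -0.93 to 0.60), and that of Il5 was -0.06 ± 0.12. Il4ra, the receptor chain that Il4 and Il13 share, lay lower with urushiol, at 12.91, 12.24 and 13.22 against 13.51, 13.29 and 14.06, with 9.57, 9.78 and 9.33 in control skin. The chemokines Ccl11, Ccl17 and Ccl22 overlapped, at -0.21 ± 0.16, -0.46 ± 0.40 and -0.19 ± 0.14. Of 24 type 2 genes, 1 lay above, 3 lay below (Ccr4, Il13ra2 and Il4ra) and 0 were called, with a median of 0.01.

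**Figure D5:**
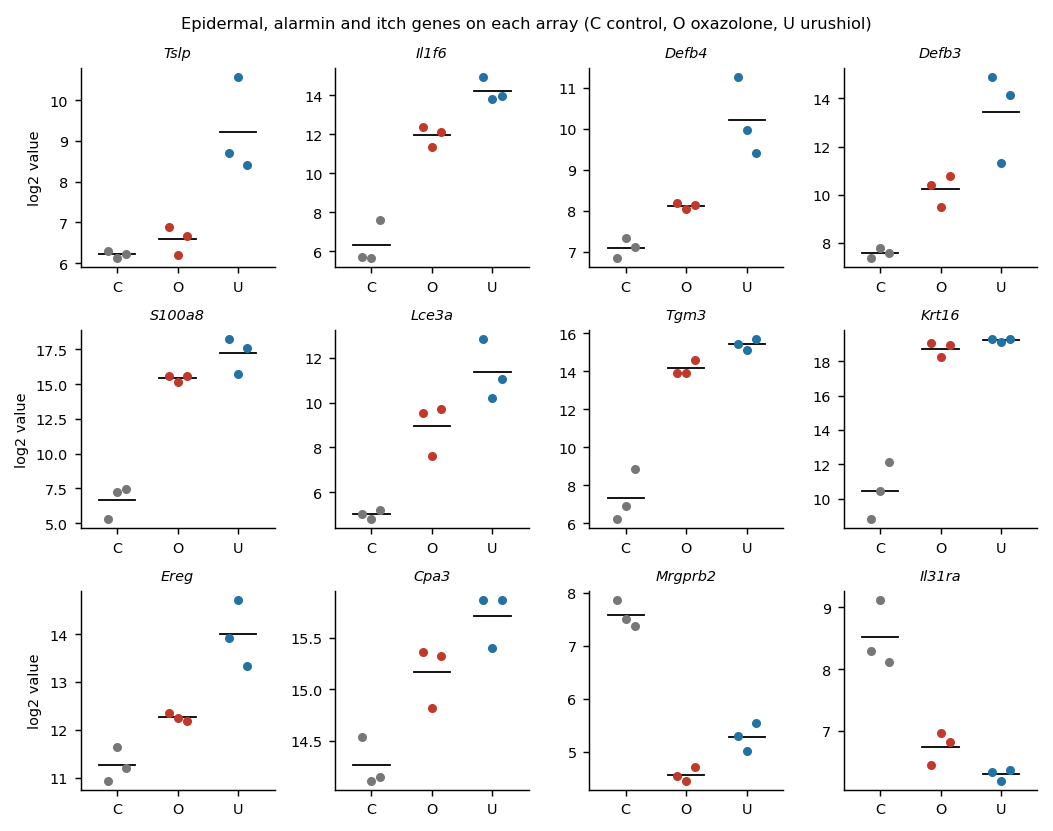
Log2 values on each array (vertical axis, its own range in each panel) for 12 epidermal, alarmin, mast cell and itch genes in control (C), oxazolone (O) and urushiol (U) skin. Points are arrays and bars are group means. The 3 urushiol arrays lie above the 3 oxazolone arrays in every panel except that of Il31ra, where they lie below.

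Of 43 measured itch mediators and receptors, 5 lay above with urushiol, 5 below and 0 were called, with a median of -0.03. Above were Tslp, the proteases Klk5 and Klk13 of the cornified layer, the leukotriene B4 receptor Ltb4r1 and Il31. Klk13 read 15.36, 14.88 and 15.26 with urushiol and 13.58, 12.25 and 14.16 with oxazolone, a difference of 1.84 ± 0.52 (adjusted p = 0.532), and Klk5 stood at 1.37 ± 0.39. Il31, an itch cytokine of T cells, read 4.31, 4.21 and 4.21 against 4.16, 4.12 and 4.01, with 4.21 on every control array, so its gap of 0.15 ± 0.06 lay at the bottom of the scale. Below were Osmr, Il4ra, Il31ra, the serotonin receptor Htr7 and Tac4. Osmr and Il31ra together form the interleukin 31 receptor. Osmr read 12.61, 11.47 and 12.83 with urushiol and 13.00, 13.42 and 13.69 with oxazolone, a difference of -1.07 ± 0.42 (adjusted p = 0.728). Il31ra read 6.33, 6.19 and 6.36 with urushiol, 6.45, 6.96 and 6.81 with oxazolone and 8.30, 9.12 and 8.12 in control skin, a difference of -0.45 ± 0.15.

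Other itch mediators, such as the following, overlapped. Tph1, the serotonin-making enzyme, read 5.71, 5.71 and 5.83 with urushiol, 5.81, 6.49 and 6.54 with oxazolone and 5.23, 5.36 and 5.22 in control skin, a difference of -0.53 ± 0.21 (95% interval -1.08 to 0.02). Edn1, endothelin 1, stood at -0.30 ± 0.18, and Nppb, a natriuretic peptide, at -0.35 ± 0.62 (95% interval -1.95 to 1.25) with both groups well above control. The neuronal channels Trpa1 and Trpv1 and the substance P gene Tac1 read between 4.28 and 4.89 on all 9 arrays. Their transcripts reside mainly in the cell bodies of sensory neurons, which lie outside the skin.

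Of 21 mast cell, basophil and eosinophil genes, 4 lay above (Cpa3, Mrgprb2, Ms4a2 and Alox15), 0 below and 0 were called, with a median of 0.10. Mrgprb2, a receptor through which peptides and drugs trigger connective tissue mast cells, read 5.29, 5.02 and 5.53 with urushiol, 4.53, 4.45 and 4.70 with oxazolone and 7.86, 7.51 and 7.36 in control skin. Both allergens lay below control, and oxazolone lay lowest, with a difference of 0.72 ± 0.15 (adjusted p = 0.348). All 6 challenged arrays read Mrgprb2 below the array medians over genes, 6.12 to 6.18. The gap between the allergens thus lay toward the bottom of the scale. Cpa3, a mast cell protease, read 15.87, 15.40 and 15.87 with urushiol, 15.36, 14.82 and 15.32 with oxazolone and 14.54, 14.11 and 14.15 in control skin, a difference of 0.55 ± 0.21. Hdc, which makes histamine, overlapped at 0.19 ± 0.37 (95% interval -0.76 to 1.13), with both groups far above control.

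Of 29 NRF2, glutathione and xenobiotic genes, 6 lay above (Gstm1, Gstm2, Gstm3, Gsto1, Nqo1 and Srxn1), 1 below (Mt2, a metallothionein) and 0 were called, with a median of 0.12. Nqo1, the quinone reductase and a classic NRF2 target, read 7.98, 7.99 and 8.07 with urushiol and 7.66, 7.69 and 7.71 with oxazolone, a difference of 0.33 ± 0.04 (adjusted p = 0.169). Gsta4, the list's widest gap at 1.69 ± 0.61, overlapped, with both groups above control. Of 18 endoplasmic reticulum stress genes, 5 lay above (Asns, Calr, Dnajc3, Pdia3 and Pdia6) and 0 below, with a median of 0.36 (0.23 without oxazolone array 2). Asns, which makes asparagine, read 11.43, 10.57 and 10.93 against 10.21, 10.02 and 10.07, a difference of 0.88 ± 0.23. Of 16 circadian genes, Rora, Clock and Arntl lay above, with Rora at 0.77 ± 0.11 (adjusted p = 0.207), and the 13 others overlapped.

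Hair follicle and melanocyte genes overlapped in most cases. Of 30 hair follicle genes, 5 lay below and 0 above, with a median of -1.57. Of 12 melanocyte genes, 5 lay below and 0 above, with a median of -1.16. Oxazolone array 2 was the highest of its group for 29 of 30 hair and 12 of 12 melanocyte genes. Without that array the medians were -0.74 and -0.55. Tyrp1, an enzyme of melanin synthesis, read 10.78, 13.71 and 11.69 with oxazolone, 9.01, 10.14 and 10.49 with urushiol and 6.18, 6.00 and 11.25 in control skin. Control array 3 thus lay among the challenged arrays, as it did for hair keratins such as Krt71 at 6.27, 6.36 and 16.12. These genes follow the hair cycle, whose stage in each sample the sources used here do not state, and its part in the differences between allergens was not tested.

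None of 13 B and plasma cell genes or 23 immediate early genes separated the allergens, with medians of 0.01 and 0.18. Of 19 dendritic and Langerhans cell genes, 1 did (Cd40, at -0.55 ± 0.23), and of 32 cell division genes 2 lay above and 4 below, with a median of -0.03. Of a panel of 37 measured genes of immunity, itch and barrier, 25 overlapped, 5 lay above with urushiol and 7 below. An interval around 0 limits the size of a difference and does not show that the allergens act alike. For Il1b, Il33 and Hdc the 95% intervals ran from -1.30 to 0.60, from -0.40 to 1.21 and from -0.76 to 1.13.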

How the data were processed

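Whole neck skin RNA of 9 mice, 3 per group, was measured on 1 Affymetrix array each. The authors deposited 1 table of log2 values for 72688 features. The submitters' processing notes name Affymetrix Expression Console 1.4, RMA and Transcriptome Analysis Console without role or order, and the sources used here do not state a genome build. After 6732 array controls were left out, 30604 clusters carried 1 gene symbol in the platform annotation, 2146 several and 33206 none. Symbols of 825 genes were updated through the RefSeq gene table. For each of 30142 genes, the cluster of highest mean on the 9 arrays was read. The 3 urushiol and 3 oxazolone arrays were compared by two-sided moderated tests in limma 3.58.1 under R 4.3.3, with Benjamini-Hochberg adjustment over all genes and a threshold of 0.05. The fit was tested on simulated data. An SE is that of the difference, with 3 arrays per group, and arrays give no counting depth, so their number limits the precision. Differences from control come from 1 fit of all 9 arrays.

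No label says that replicate numbers pair the samples. Deviations of same-numbered oxazolone and urushiol arrays from their group means correlated at 0.201, 0.197 and 0.124, and those of the other pairs at -0.180 to 0.021. The numbers may pair the samples, which these values cannot decide. Deviations cancel out within each group, so the correlations of the other pairs are not independent of those of the same-numbered ones. The main fit, with its SEs, intervals and adjusted p values, does not use that pairing. The replicate block is given where it changes a call, and with it 0 genes were called. Genes to name were called genes without overlap, up to 4 called members or the widest gap of each of 38 lists, and a panel of 40 symbols, 37 of them measured. Not all of these are named in the text. Further genes are named that were picked with their values in view. The members and lists were chosen with earlier results of these data known. Lists are described by counts and medians beside the background over all genes, with no set test.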

Additional observations from a re-analysis of the deposited data

Results flagged for a closer look

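Ckmt2 and Rragd, at 1.47 and 0.82 higher with urushiol, were the 2 genes whose difference between the allergens passed the threshold. Further list members stand out because all arrays of 1 allergen lay above, and all arrays of the other below, the control arrays. For these the difference between the allergens missed the threshold (adjusted p = 0.139 to 0.611). With oxazolone above and urushiol below control, the differences were -4.28 for Usp18, -3.72 for Ifih1, -3.42 for Stat2, -2.37 for Tap1, -1.52 for Tapbp, -1.28 for Psmb9 and -1.06 for Tap2. With urushiol above and oxazolone below control, the difference was 0.87 for Smpd1.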

How the results depend on the processing

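The count of genes higher with urushiol, 2 as reported, was 7 with control array 3 left out of a fit of the other 8 arrays, 8 with array weights, 6 with median centring, without moderation and with a trended prior variance, 9 with quantile renormalisation, and 1 with dim genes left out, with a robust prior variance and with a tested fold change of 0.5 log2. It was 1 and 9 at thresholds of 0.01 and 0.1, 0 with the replicate block, and 0 to 1 when 1 of the 6 arrays was left out, where the 1 gene appeared without oxazolone array 3. The count of genes lower with urushiol, 0 as reported, was 3 with all 9 arrays in the fit and 0 with every other alternative, leaving out single arrays included. The replicate block changed no other call. Gbp2, Stat4 and Smpd1 were called with all 9 arrays in the fit, and Sqle with quantile renormalisation (0.90, adjusted p = 0.0299). The cause of these changes was not tested.

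Of 148 genes checked under the alternatives, 133 did not change the sign of their difference under any alternative run, the 2 scalings included. Most of the 148 are named above, but some are not, and some genes named above were not among them. The other 15 were not called, with intervals that include 0. Many alternatives change only the variance, the genes kept or the threshold, and cannot alter a sign. Leaving out 1 array cannot reverse a gene whose arrays do not overlap. An unchanged sign was thus largely fixed in advance. Il4, Lor and Adipoq reversed with array weights (-0.02, -0.13 and 0.02). On leaving out single arrays, differences ranged from -0.24 to 0.01 for Adipoq, from -0.12 to 0.52 for Hdc, from -0.08 to 0.17 for Ifngr2, from -0.07 to 0.05 for Il12a, from -0.01 to 0.05 for Il12b, from -0.37 to 0.10 for Il13, from -0.03 to 0.06 for Il17f, from -0.03 to 0.45 for Il23a, from -0.01 to 0.03 for Il25, from -0.05 to 0.13 for Il4, from -0.14 to 0.05 for Il5, from -0.12 to 0.27 for Lor, from -0.18 to 0.69 for Nlrp3, from -0.96 to 0.07 for Nppb and from -0.72 to 0.08 for Tnf. Array values near the bottom of the scale, as for Il17a and Il22, limit what can be seen.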

Other observations

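Some genes of the adipocyte list had the same order of groups as the muscle genes. Of 16 adipocyte genes, 4 lay above with urushiol (Aqp7, Car3, Cidec and Slc2a4), 0 below and 0 were called, and on those 4 control lay above both allergens. Car3, the carbonic anhydrase of fat and muscle, read 15.31, 15.58 and 16.02 with urushiol, 14.76, 14.70 and 14.82 with oxazolone and 18.54, 18.66 and 17.78 in control skin, a difference of 0.88 ± 0.19 (adjusted p = 0.365). Adipoq, the adiponectin gene, stood at -0.09 and overlapped, and the list's median was 0.20 (0.04 without urushiol array 3 and 0.12 without oxazolone array 1). Of 23 oxidative phosphorylation genes 1 lay above, Uqcrc1 at 0.48 ± 0.12, with a median of 0.06.

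Of 19 sebaceous gland and lipid synthesis genes, 4 lay above with urushiol (Dgat2, Fabp5, Hmgcs1 and Sqle) and 1 below, the lipid droplet coat Plin2 at -0.84, with a median of -0.04. The wax ester enzyme Awat1 had the list's widest gap at -1.57 ± 1.31 (95% interval -4.93 to 1.80), and its arrays overlapped. Of 20 glycolysis and hypoxia genes, 3 lay above and 0 below, with a median of 0.43 that fell to 0.07 without oxazolone array 2, and the glucose carrier Slc2a1 overlapped at 0.89 ± 0.60. Of 20 prostaglandin and leukotriene enzymes, 2 lay above and 2 below, with a median of 0.21 (0.06 to 0.28 on leaving out single arrays). Hpgd, which inactivates prostaglandins, read 12.41, 11.17 and 11.95 with urushiol and 11.18, 10.18 and 11.17 with oxazolone, so the groups overlapped. Of 23 dermal fibroblast genes 2 lay below, of 20 endothelial genes 1 lay below and of 14 Schwann cell and nerve genes 1 lay above, with medians of 0.15, 0.08 and -0.04.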
